A study of Homo sapiens with 8 samples.

Results

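Interferon-stimulated genes are the genes that cells switch on when an interferon binds its receptor, and 36 of them were examined here for the accessible regions around them in U-937 cells. The 36 were taken by name, from ISG15 to LGALS3BP, and all 36 were found in the GENCODE annotation of hg38 among 20007 protein-coding genes. A region was assigned to a gene where it overlapped the gene body or the 10 kb on either side of it. By that rule, 157 of the 161291 accessible regions of the series lay near the 36 genes, against 111257 near any protein-coding gene.

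The series measured chromatin accessibility by ATAC-seq, which uses a transposase to insert adapters into DNA that nucleosomes leave exposed. U-937 is an established human line of monocytic character, which the submitters class as acute myeloid leukaemia cells. Cells were exposed for 24 h to DMSO (the vehicle), to ATRA at 0.1 µM, to Corin at 0.1 µM, or to ATRA plus Corin at 0.1 µM each. ATRA is all-trans retinoic acid, which activates retinoic acid receptors and drives maturation of some myeloid leukaemia cells, and Corin is an inhibitor that joins a histone deacetylase inhibitor to an inhibitor of the demethylase LSD1 and so acts on the CoREST complex. Each of the 4 groups has 2 samples, 8 in all, and the authors deposited 1 list of called peaks per group. Peaks that overlapped were merged within each list and then over the 4 lists to give the regions counted here. With 1 list per group there is no spread between replicates, so no difference below has a test, and each interval covers counting error over regions only. Read depth is not given in the peak lists, and whether a region missing from a list was closed or only below the calling threshold cannot be told apart.

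Type I interferons signal through the kinases JAK1 and TYK2 to a complex with STAT2 and IRF9, which binds a DNA element called the interferon-stimulated response element (ISRE). Most of the genes examined here make antiviral proteins, and many are expressed at a low level without interferon and at a high level after it. In myeloid cells, retinoic acid has long been linked to interferon signalling, with several of these genes known as targets of both. Interferon gamma acts mainly through another element, GAS, while ETS factors such as PU.1 bind with IRF factors at a composite element.

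The ISRE was searched for as GAAANNGAAA on both strands, where N is any base. It was found in the RefSeq promoter (250 bases before to 50 after the start, GRCh38.p14) of 19 of the 29 genes that had an entry, or 65.5%, against 3.18% of 15345 protein-coding genes. The promoters of the 5 genes that hold an ISRE and whose accessible promoter region shifted by 20 percentile points or more in a treatment (below) are shown from 200 bases before the start to 10 after it, 5′ to 3′ on the gene's own strand, with each ISRE in capitals. They are IFIT3 (chr10:89327797-89328006, + strand), IFI27 (chr14:94110536-94110745, + strand), ISG20 (chr15:88638816-88639025, + strand), IFITM3 (chr11:320851-321060, - strand) and IFITM1 (chr11:313840-314049, + strand).
IFIT3: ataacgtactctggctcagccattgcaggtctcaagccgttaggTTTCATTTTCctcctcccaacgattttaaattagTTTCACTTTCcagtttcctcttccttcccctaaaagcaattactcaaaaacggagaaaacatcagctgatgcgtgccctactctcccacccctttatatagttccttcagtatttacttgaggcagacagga
IFI27: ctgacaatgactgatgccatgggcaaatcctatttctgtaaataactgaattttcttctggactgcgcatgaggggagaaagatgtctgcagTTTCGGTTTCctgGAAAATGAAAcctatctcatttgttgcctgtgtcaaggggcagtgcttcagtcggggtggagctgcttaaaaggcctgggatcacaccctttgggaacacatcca
ISG20: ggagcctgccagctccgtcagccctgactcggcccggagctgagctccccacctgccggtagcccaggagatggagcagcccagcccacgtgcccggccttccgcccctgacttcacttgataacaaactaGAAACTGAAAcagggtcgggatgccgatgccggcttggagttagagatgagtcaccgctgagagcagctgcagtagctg
IFITM3: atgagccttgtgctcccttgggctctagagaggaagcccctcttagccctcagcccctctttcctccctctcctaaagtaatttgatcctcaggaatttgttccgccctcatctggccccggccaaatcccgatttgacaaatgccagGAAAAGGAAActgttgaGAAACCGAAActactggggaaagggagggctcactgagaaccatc
IFITM1: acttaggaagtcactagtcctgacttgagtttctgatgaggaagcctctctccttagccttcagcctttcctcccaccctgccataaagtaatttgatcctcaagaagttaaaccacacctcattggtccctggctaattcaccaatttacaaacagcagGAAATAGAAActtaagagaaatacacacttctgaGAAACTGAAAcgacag
IFIT3 held its sites at -156 and -122, the position of the first base of each site relative to the start. In IFI27 they lay at -108 and -95, in ISG20 the single site lay at -69, and in IFITM3 they lay at -52 and -35. In IFITM1 the sites began at -40 and -6, so the latter ran across the start. For IFI27 and IFITM3 the region that shifted lies at another annotated start, as given with their values.

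Among the other motifs, GAS (TTCNNNGAA) was found in 7 of the 29 promoters (24.1%, against 6.95% of all). The IRF-ETS composite (GGAANNGAAA) was found in 6 (20.7% against 2.52%), the PU.1 site (GAGGAAGT) in 2 (6.90% against 2.52%) and the AP-1 site (TGANTCA) in 3 (10.3% against 5.74%). The retinoic acid receptor direct repeat with 5 free bases, searched as its exact repeat, was in 0 of the 29 and in 0 of all 15345. These letters can overlap: a GAS match overlapped an ISRE in IFI27, IFITM1, BST2 and EPSTI1. A match describes the sequence only.

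**Figure D1:**
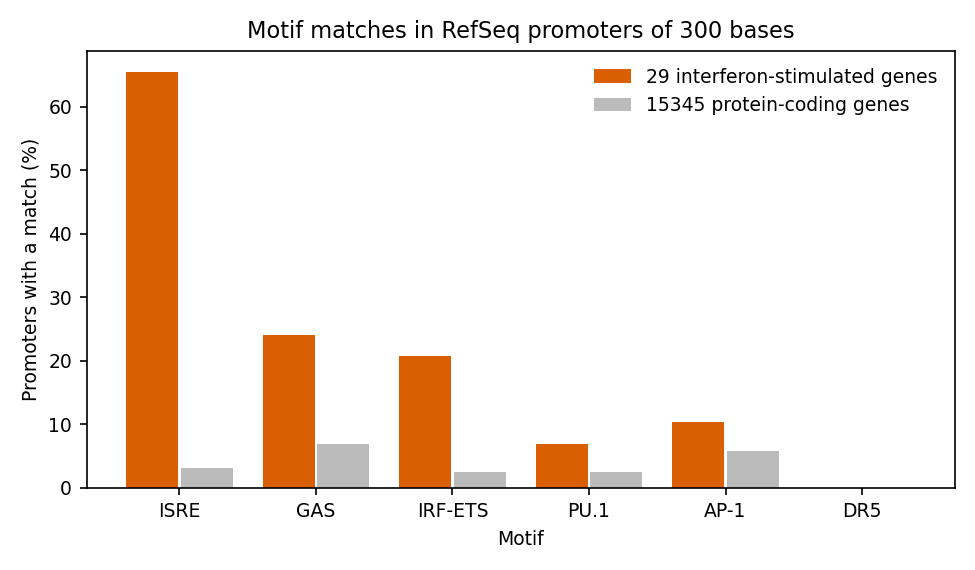
Share of RefSeq promoters of 300 bases (y axis, percent) with at least 1 match to each motif (x axis), for 29 interferon-stimulated genes (orange) and 15345 protein-coding genes (grey). The ISRE bars stand at 65.5% and 3.18%, the widest gap of the 6 motifs.

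In each list, the value used for a region was the highest fold of peak signal over local background among its peaks, as the authors' peak caller wrote it. Folds differ between lists as a whole: over the 66303 regions called in all 4 lists the median fold was 8.74 in DMSO, 11.8 with ATRA, 7.93 with Corin and 8.81 with ATRA plus Corin. Comparisons between lists therefore use the percentile of a region among those same 66303 regions in each list, and a shift of 20 percentile points against DMSO was counted as a move. The promoter region of a gene was the one within 1 kb of any of its annotated starts with the highest fold in any of the 4 lists. The choice thus ran over the treatment lists too, and folds as a whole were highest with ATRA.

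The promoters of these genes were mostly open in every condition, vehicle included. A promoter region was called in at least 1 list for 32 of the 36 genes, against 74.8% of all protein-coding genes, and in all 4 lists for 30, against 65.4%. RSAD2 and CMPK2, neighbours that face away from each other, share 1 promoter region, so the 30 genes have 29 distinct regions. In DMSO these 29 regions had a median fold of 13.0, ranging from 4.96 to 19.6, next to 13.3 over all 11451 such promoter regions. With ATRA the median was 18.4 next to 15.4, with Corin 13.0 next to 13.2, and with ATRA plus Corin 14.6 next to 14.3. Their median percentile was 75.5 in DMSO, 82.5 with ATRA, 77.6 with Corin and 80.1 with ATRA plus Corin, where all promoter regions stood at 77.2, 69.2, 78.6 and 78.6. So all promoter regions together stood lower with ATRA than in DMSO on this scale, and those of the interferon-stimulated genes did not.

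**Figure D2:**
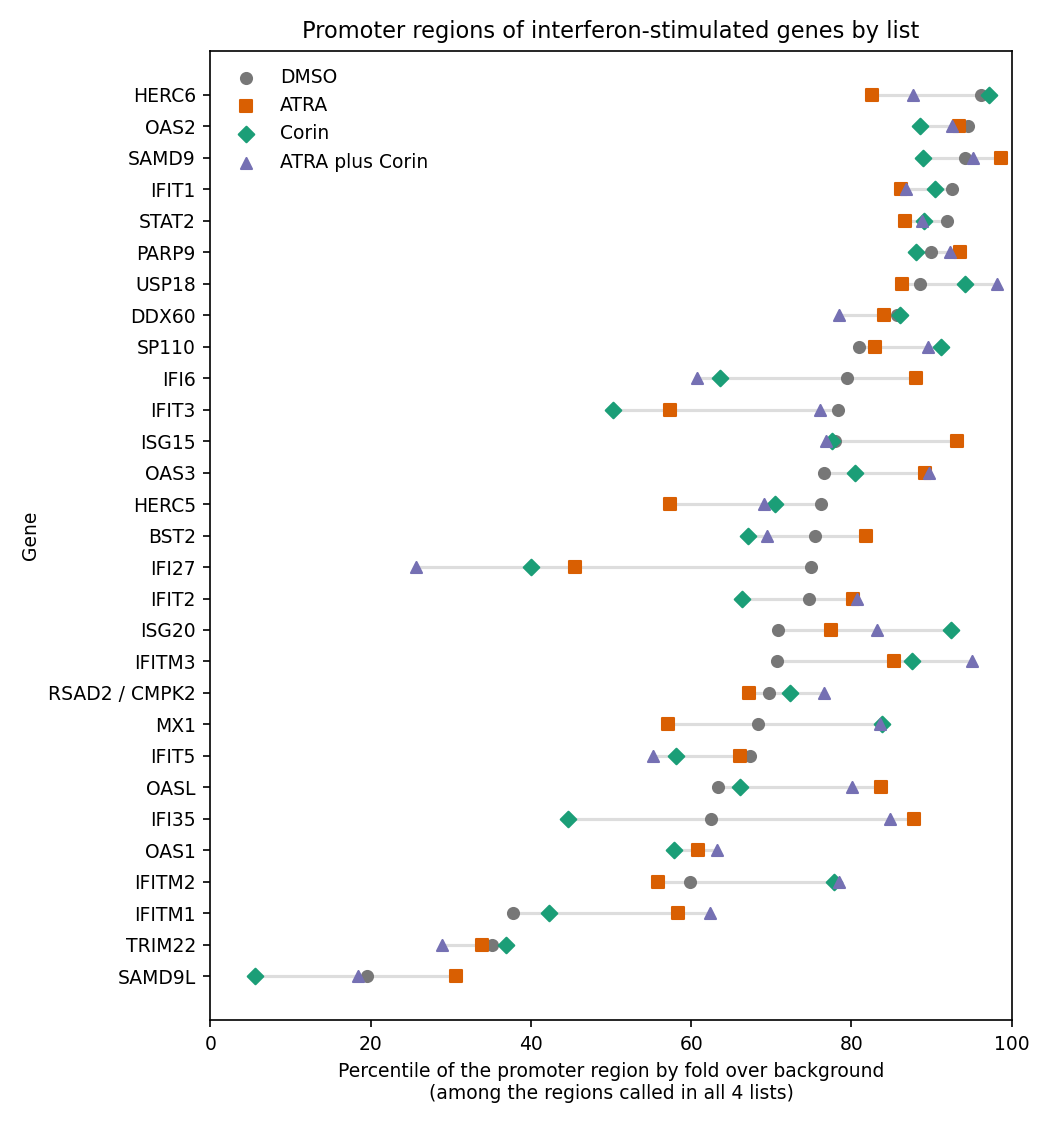
Percentile of the promoter region by fold over background (x axis, among regions called in all 4 lists) for each gene (y axis, ordered by DMSO), with 1 point per list: DMSO (grey circles), ATRA (orange squares), Corin (green diamonds) and ATRA plus Corin (purple triangles). OAS2, SAMD9, IFIT1, STAT2 and PARP9 stay at percentile 86.2 or above in every list, IFI27 runs from 74.9 in DMSO down to 25.6, and IFITM1 and IFI35 have their ATRA and ATRA plus Corin points to the right of DMSO.

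Signalling genes and the ISG15 system came first. STAT2, the transcription factor that carries the signal to the ISRE, had folds of 17.4, 19.7, 16.0 and 17.1 in DMSO, ATRA, Corin and ATRA plus Corin, the order used in all that follows. PARP9, which promotes interferon signalling, had 16.7, 22.3, 15.7 and 18.4. Both promoters stood at or above percentile 86.7 in every list. ISG15 encodes a ubiquitin-like protein that is attached to other proteins, and its promoter had 13.5, 22.1, 13.0 and 13.9. Only the ATRA value stood apart, at percentile 93.2 against 77.9 in DMSO. USP18 removes ISG15 and damps the receptor, and its promoter had 16.2, 19.5, 18.1 and 22.3, with its top percentile, 98.1, under ATRA plus Corin. HERC5, the ligase that attaches ISG15, had 13.2, 13.1, 11.5 and 12.2. HERC6, its relative, had 19.6, 18.4, 20.2 and 16.7. The 2 HERC promoters stood lower in rank with ATRA than in DMSO, at 57.4 against 76.2 and at 82.5 against 96.2.

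The IFIT proteins bind foreign RNA, and the 4 IFIT genes examined here lie near each other on chromosome 10. IFIT1 had 17.7, 19.5, 16.5 and 16.4, and IFIT2 had 12.8, 17.8, 10.7 and 14.8. IFIT5 had 11.4, 14.8, 9.25 and 9.66. IFIT3, whose promoter is printed above, had 13.6, 13.1, 7.98 and 13.7, which put it at percentiles 78.3, 57.3, 50.3 and 76.1. By rank it therefore moved down with each single agent and stood 2.17 points below DMSO with both. With ATRA its fold hardly changed and its -log10 p rose from 193 to 279. Ranked among promoter regions alone, its shift with ATRA was -18.5 points, short of a move.

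The OAS enzymes sense double-stranded RNA and make the signal that activates RNase L. OAS1 had 10.4, 13.7, 9.20 and 11.1, OAS2 had 18.6, 22.2, 15.9 and 18.5, and OAS3 had 13.2, 20.5, 13.7 and 17.4. OASL, a relative without that enzymatic activity, had 10.8, 18.8, 10.7 and 14.6. OAS2 was near the top in all lists and OAS1 near the 60th percentile in all. OASL moved up with ATRA, from 63.3 to 83.7, and stood at 80.1 with both agents, while OAS3 went from 76.6 to 89.2 and 89.7.

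MX1 and MX2 are dynamin-like GTPases that block viruses. MX1 had 11.6, 13.0, 14.5 and 15.5, which is percentile 68.3, 57.1, 83.8 and 83.6, lower than DMSO with ATRA and higher in both lists with Corin. That MX1 region lay 5723 bases from the canonical start, which had no region within 1 kb in any list. MX2 has its main start open in every list, with folds of 8.63, 10.8, 7.22 and 7.43 and percentiles between 41.1 and 49.2. The strongest region near any of its annotated starts was a different one, 44.5 kb into the gene (chr21:41406204-41406853), called with ATRA (fold 14.3) and with ATRA plus Corin (3.78) and in neither other list.

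The IFITM proteins and BST2 act at membranes, where they hinder virus entry or release. IFITM1 had 7.12, 13.3, 6.81 and 10.9, which is percentile 37.8, 58.4, 42.2 and 62.4, so both lists with ATRA stood at least 20 points above DMSO. IFITM2 had 10.2, 12.8, 13.0 and 14.2, and stood at 77.8 and 78.4 in the lists with Corin against 59.9 in DMSO. IFITM3 had 12.1, 19.2, 15.6 and 19.7, which is 70.7, 85.3, 87.6 and 95, higher in each treatment than in DMSO. That IFITM3 region lay 6150 bases from the gene's canonical start, at another annotated start, and the promoter printed above was covered in none of the lists. BST2, or tetherin, had 13.0, 18.2, 10.8 and 12.3.

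Among nucleotide and RNA enzymes, RSAD2 (viperin) and CMPK2 share a region with folds of 11.9, 15.0, 11.9 and 13.8. It lies at the canonical start of CMPK2 but 12006 bases from that of RSAD2, where a weak region (2.54) was called in DMSO only. ISG20, an RNA exonuclease, had 12.1, 17.1, 17.3 and 15.4, and was the only one of the 29 to move up with Corin, from percentile 70.8 to 92.4. DDX60, a helicase, had 15.4, 18.9, 15.1 and 14.2. SAMD9 had 18.4, 26.4, 16.0 and 19.8, the highest fold and percentile (98.6) of all 29 with ATRA. Its neighbour SAMD9L was the lowest of all 29 in DMSO at percentile 19.5, with 4.96, 8.38, 2.76 and 4.50. These relatives, which restrict poxviruses, thus stood at opposite ends of the promoter ranking.

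Of the genes named for interferon induction alone, IFI6, a mitochondrial survival protein, had 13.8, 20.1, 10.2 and 10.6. IFI35 had 10.6, 20, 7.16 and 15.8, which is percentile 62.5, 87.8, 44.6 and 84.8. The shifts were 25.3 points with ATRA, 22.3 with both agents and -17.8 with Corin alone. IFI27 had 12.9, 11, 6.51 and 5.39, which is 74.9, 45.5, 40 and 25.6, a move down in every treatment. Its region lay 4528 bases from the canonical start, inside the gene, and the promoter printed above was in none of the lists. A weaker region 726 bases from that start was called in DMSO (2.39) and with ATRA (4.94) only. TRIM22, an antiviral ubiquitin ligase, had 6.79, 8.93, 6.13 and 5.80, and SP110, a nuclear body protein, had 14.2, 18.5, 16.8 and 17.3.

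The other 5 genes had no promoter region in all 4 lists. XAF1, which promotes cell death by opposing XIAP, had its promoter region (chr17:6755731-6756221) called with ATRA at a fold of 5.01 and with ATRA plus Corin at 2.42, and in neither list without ATRA. A promoter region with that pattern was found for 97 of the 20007 protein-coding genes, XAF1 and MX2 included. MX2 is among them only because its internal region had the highest fold, with ATRA, while its main start was open in every list. IFI44, IFI44L, EPSTI1 and LGALS3BP had no region within 1 kb of any start in any list. The nearest region was 1389 bases away for IFI44, 1842 for IFI44L, 6034 for EPSTI1 and 2720 for LGALS3BP. All 4 hold an ISRE in their RefSeq promoter, so an ISRE there did not go with an open promoter in these cells in every case.

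Counting moves, ATRA put 3 of the 29 member promoters up by 20 points (IFI35, OASL and IFITM1), where 4.84% of all promoters moved as far, and 2 down (IFI27 and IFIT3), where 10.3% did. Corin put 1 up (ISG20; 2.42% of all) and 2 down (IFI27 and IFIT3; 1.94% of all). ATRA plus Corin put 3 up (IFITM1, IFITM3 and IFI35; 4.36% of all) and 1 down (IFI27; 2.09% of all). These counts are small, and none of the 3 treatments moved most of the genes.

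As a set, the members differed most from all promoters with ATRA, where their own median rank hardly shifted. The median shift of the 29 promoters was 0.0362 points with ATRA, where all promoters had -6.93, and 24 of the 29 lay above that general median. With Corin the median shift was -1.88 against 0.920, with 12 of 29 above. With ATRA plus Corin it was 0.980 against 0.629, with 15 of 29 above. With only canonical starts counted, an alternative chosen after seeing the data, 24 of 27 lay above with ATRA, 9 with Corin and 13 with both. IFI27, IFITM3, MX1 and RSAD2 then drop out, and MX2 comes in. Ranked among promoter regions alone, also chosen afterwards, ATRA put 10 of 29 up (9.89% of all) and 1 down (6.92%). On that scale Corin put 5 up (3.03%) and 3 down (2.93%), and ATRA plus Corin put 7 up (5.14%) and 3 down (3.74%).

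Base composition moved with this result. In the 200 bases around the summit, the median GC content was 56.5% in the 29 member promoters and 67.0% over all promoter regions, and the ATRA list as a whole had regions of 47.5% GC against 50.5% in DMSO. Within the third of promoters of lowest GC, up to 62.0%, the 18 member promoters had a median shift of 3.22 with ATRA against -2.81 for all of that class, with 14 of 18 above it. In the middle class the 9 members had -2.28 against -7.27, with 6 above, and in the highest both members lay above. With Corin, 6 of the 18 members of the low class lay above its median.

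The presence of an ISRE at the summit was set beside the shift. Among member promoters, 16 of 29 summit windows of 200 bases held an ISRE, or 55.2%, against 1.83% of all promoter regions. With ATRA these 16 had a median shift of 4.96, with 14 of 16 above the general median, and the 13 without had -1.23, with 10 of 13 above. With Corin the order was the other way, -3.76 with an ISRE and 1.78 without, as it was with both agents, -1.07 and 6.90. With ATRA, 6.25% of the 16 with an ISRE and 15.4% of the 13 without moved up by 20 points. Among promoters of other genes the order was the reverse, 13.4% with an ISRE and 4.68% without. The member sets are small and no gap was tested.

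Beyond promoters, the regions gained and lost around the 36 genes were counted against DMSO. A region was gained where the treatment list held it and DMSO did not, and lost in the reverse case. With ATRA, 27 of the 129 regions near the genes were gained, which is 20.9% (Wilson 95% interval 14.8 to 28.7), where 22.7% of regions near all protein-coding genes were. With Corin, 15 of 102 were gained, 14.7% (9.12 to 22.9) against 16.9%. With ATRA plus Corin, 16 of 109 were gained, 14.7% (9.24 to 22.5) against 15.5%. In each treatment this share lay near that of all genes. Among stronger Corin regions, with a -log10 p of at least 10, it did not: 11 of 92 were gained, 12.0% against 5.88%. That minimum was added after seeing the data. At the same minimum the shares were 20.5% against 19.3% with ATRA and 10.2% against 8.98% with both agents. Of the planned settings, only a -log10 q of at least 5 put the Corin share above its background, 12.6% against 10.7%. With lists cut to equal length the Corin share was 14.1% against 18.4%.

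Losses differed more. With ATRA, 13 of the 115 DMSO regions were lost, 11.3% (6.73 to 18.4), where 24.2% of regions near protein-coding genes were. With Corin, 28 of 115 were lost, 24.3% (17.4 to 32.9) against 27.4%, and with ATRA plus Corin 22 of 115, 19.1% (13.0 to 27.3) against 30.5%. The share lost with ATRA and that lost with both agents lay below their backgrounds by similar margins, and which margin was wider changed with the setting. Both gaps were narrower among stronger regions: among DMSO regions with a -log10 p of at least 10, 7.69% near the genes and 10.2% near all were lost with ATRA, and with lists cut to equal length the values were 12.3% and 17.0%. With both agents the same settings gave 12.5% against 18.2% and 14.2% against 19.6%. With a flank of 2 kb the loss with ATRA was 6.25% against 24.1%.

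**Figure D3:**
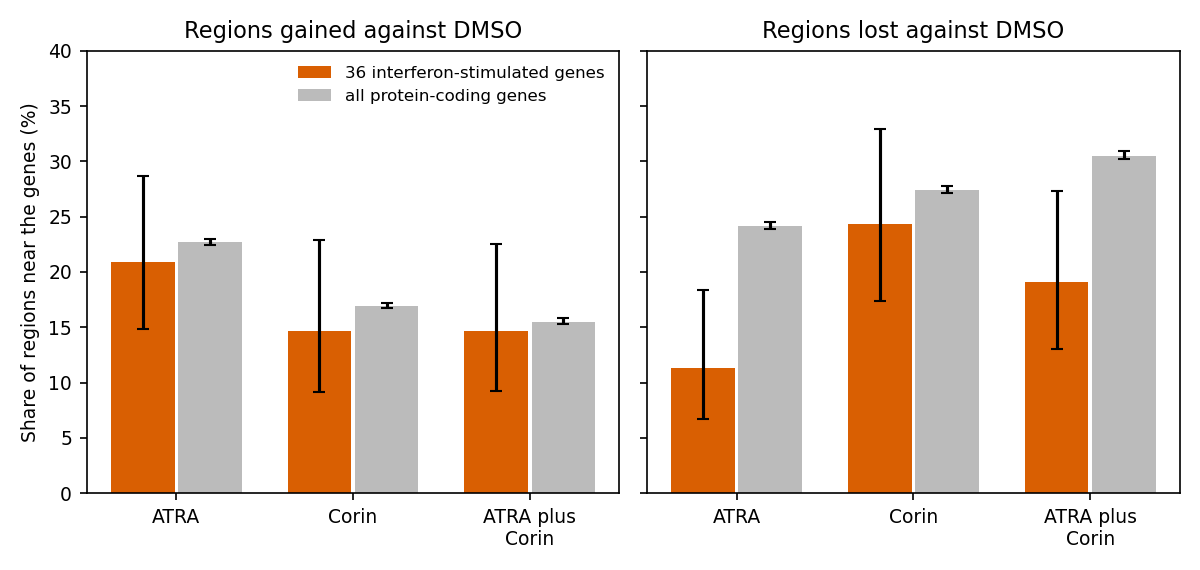
Share of regions near the 36 interferon-stimulated genes (orange) and near all protein-coding genes (grey) that were gained (left) or lost (right) against DMSO, in percent, per treatment; bars start at 0 and error bars are Wilson 95% intervals for counting error over regions. The 3 pairs of gained bars overlap in their intervals, and for losses the orange bar stands below the grey one beyond its interval with ATRA (11.3% and 24.2%) and ATRA plus Corin (19.1% and 30.5%).

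The same counts were set against other protein-coding genes with the same number of regions, adding the genes' counts so that a region near several of them counts for each. The 36 genes summed to 174 such regions. With ATRA, 29 were gained where the means of those other genes sum to 23.9, 15 were lost against 26.9, and 114 were shared against 105. With Corin, 17 were gained against 15.4 and 33 lost against 30.6. With ATRA plus Corin, 18 were gained against 13.1 and 27 lost against 34.4. The gains in each treatment and the losses with Corin thus lay above this comparison, while their shares lay below the background. At least 1 region was gained near 21 of the 36 genes with ATRA, where the shares of those other genes sum to 16.4, near 12 with Corin (11.8) and near 16 with both (10.3).

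Over all 4 lists, 81 of the 157 regions were called in every list, 51.6% against 42.7% near all protein-coding genes. The next patterns were ATRA only with 16 (10.2% against 11.3%), DMSO and ATRA only with 12 (7.64% against 5.06%) and Corin only with 10 (6.37% against 7.80%). Regions in DMSO alone were 7, or 4.46% against 9.97%. Regions in ATRA and ATRA plus Corin only were 7 (4.46% against 3.20%), and regions in every list but DMSO were 4 (2.55% against 0.936%). By position, 74 of the 157 lay within 1 kb of a start of some gene, 38 in introns, 19 in exons and 26 between genes. No share near all protein-coding genes is set beside these positions, so they describe these regions only.

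**Figure D4:**
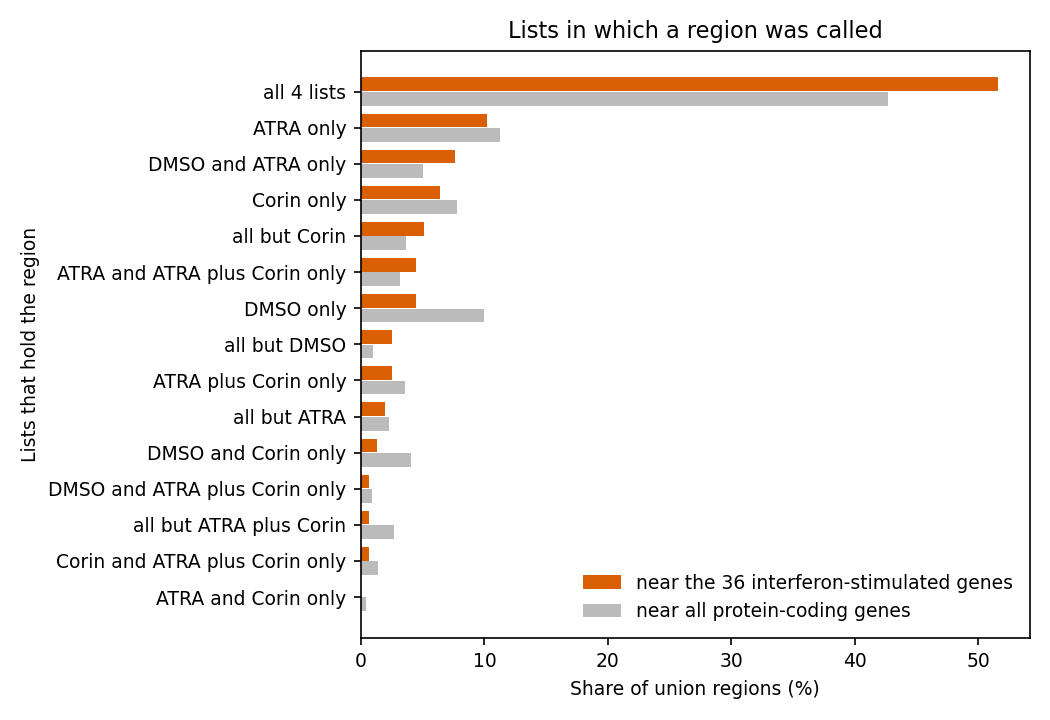
Share of union regions (x axis, percent) by the lists that hold them (y axis), near the 36 interferon-stimulated genes (orange, 157 regions) and near all protein-coding genes (grey, 111257 regions). Regions in all 4 lists lead in both sets, and regions in DMSO only are 4.46% and 9.97%.

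The gained regions with ATRA were mostly weak next to the shared ones. Their -log10 p in the ATRA list ran from 7.09 to 164 with a median of 23.1, while the 102 shared regions had a median of 168 in that list. The 5 strongest, named by that value, were the internal MX2 region (164), a region 15.9 kb downstream of the start of IFI6 (chr1:27656175-27656442, 107), a region in OAS2 (chr12:112988231-112988601, 75.5), the XAF1 promoter (68.7) and a region at an internal start of IFIT3 that also lies in LIPA (chr10:89332343-89332590, 68.3). The IFI6 region was called in every list but DMSO, with folds of 4.38, 2.73 and 3.89. The OAS2 region had 10.8 with ATRA and 3.55 with both, and the IFIT3 region had 5.29 with ATRA alone and was in no other list.

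Of the 27 regions gained with ATRA, only the OAS2 and IFIT3 regions held an ISRE at the summit, 7.41% against 6.32% of ATRA-gained regions near all protein-coding genes. Both held 2 sites, which are shown from the first to the last on the + strand, in capitals, as chr12:112988370-112988399 and chr10:89332435-89332487 of hg38.
OAS2: GAAAAGGAAAatgatgtactGAAAATGAAA
IFIT3: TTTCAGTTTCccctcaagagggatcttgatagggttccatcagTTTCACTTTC
The IRF-ETS composite was found in 5 of the 27, or 18.5% against 4.52%, and in 0 of the 13 regions lost with ATRA (1.24% of those near all genes). The AP-1 site was found in 0 of the 27 (6.34% near all genes) and in 3 of the 15 regions gained with Corin, 20% against 19.8% near all genes.

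Regions lost with ATRA were led by an exonic region of OAS3 (chr12:112971200-112971685, fold 7.39, -log10 p 54.6), which was called in DMSO only and so was lost in every treatment. Next came a region at the longest annotated 5′ end of IFITM3 (chr11:329448-329772) and one in BST2 (chr19:17403286-17403583). Both were called in DMSO and Corin only, with folds of 4.40 and 2.27, and of 2.43 and 2.55. A region downstream of SAMD9 and an intronic TMPRSS2 region near MX1 were missing from the ATRA list alone, with DMSO folds of 3.84 and 3.62.

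Corin gained 2 intronic regions of OASL (chr12:121036768-121036999 and chr12:121026512-121027188) and 1 of EPSTI1 (chr13:42892818-42893128), all called with Corin only, at folds of 3.35, 4.74 and 4.46. With Corin the strongest losses were 3 regions at VAT1, beside IFI35, with folds of 3.30, 3.11 and 2.87 in DMSO, and an exonic RSAD2 region (chr2:6896878-6897479) with 6.09. All 4 were called in every list but Corin. Another VAT1 region (chr17:43018347-43018841) was called in every list but DMSO, at 2.84, 2.23 and 3.28.

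ATRA plus Corin gained a region between SP110 and SP140 (chr2:230226148-230226704), called at 9.97 with ATRA and 5.51 with both. It also gained an OAS3 intronic region (chr12:112940027-112940246), called in all 3 treatments at 4.29, 3.20 and 3.38, and a region in IFITM2 (chr11:305020-305252) at 3.93 with ATRA and 3.15 with both. Regions of AGRN beside ISG15 (chr1:1021103-1021409) and at the CMPK2 and RSAD2 starts (chr2:6866483-6866689) were in DMSO and ATRA and in neither list with Corin. The 5 strongest gains with both agents also include the IFI6 and VAT1 regions. All 5 were in the ATRA list too, and the IFI6, VAT1 and OAS3 regions were in the Corin list as well.

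**Figure D5:**
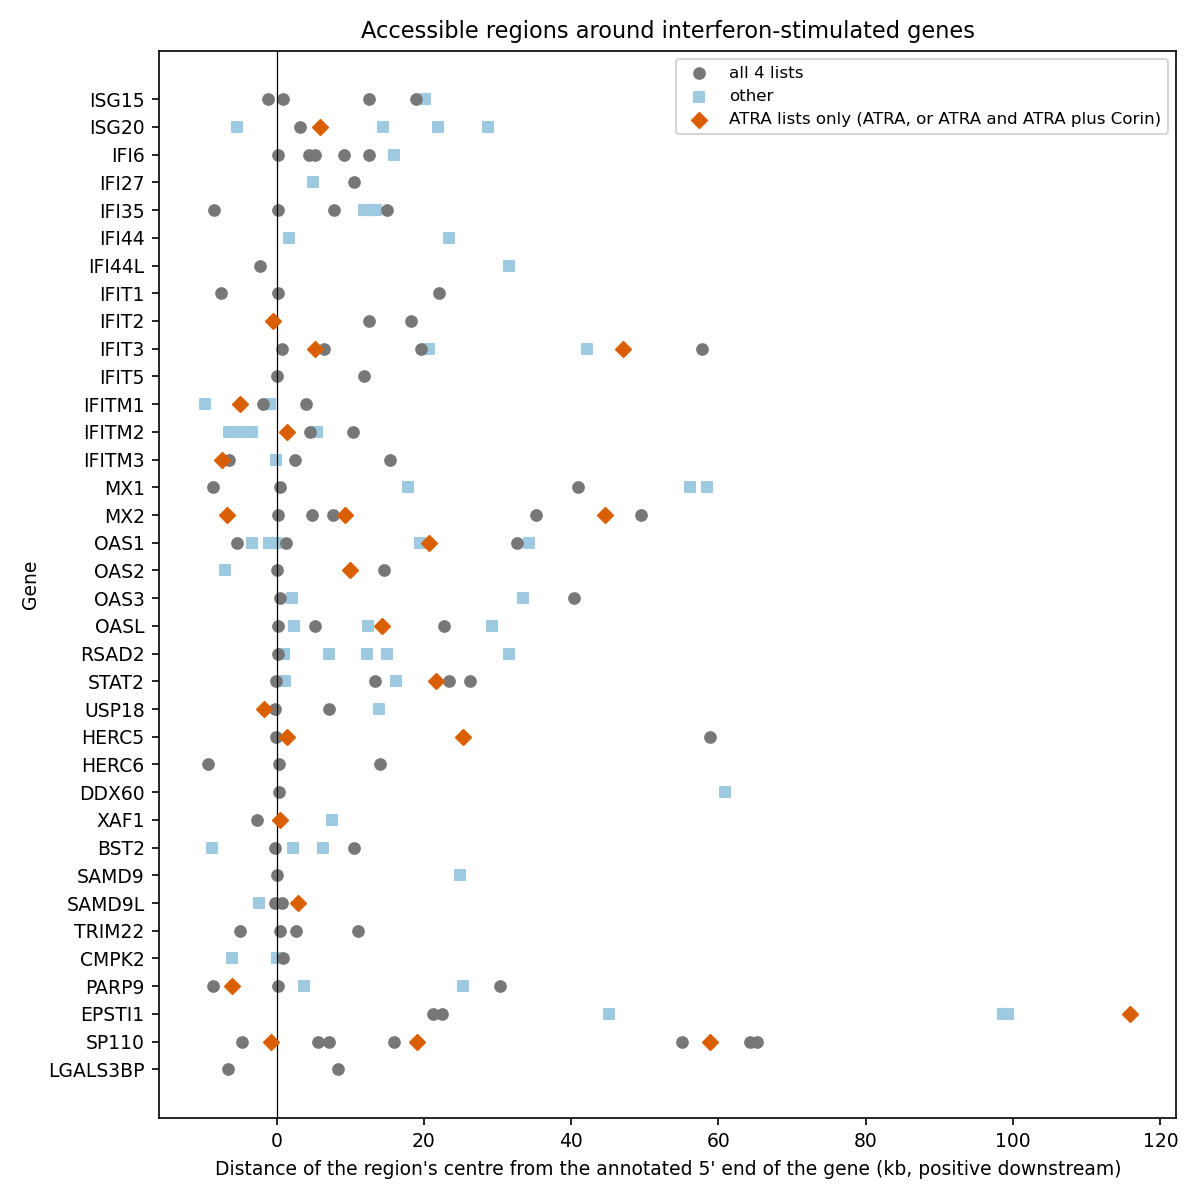
Position of each accessible region near each gene (y axis) as the distance of its centre from the annotated 5′ end of the gene (x axis, kb, positive downstream; a region near several genes is drawn for each). Grey circles are regions in all 4 lists, orange diamonds those in ATRA or in ATRA and ATRA plus Corin only, and blue squares all other patterns; most genes have a grey point at or near 0, and IFI44 has no grey point.

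The rest of the interferon pathway was counted the same way over 52 genes, which hold 361 regions. With ATRA 56 of 266 were gained (21.1%) and 44 of 254 lost (17.3%), with Corin 46 of 254 gained (18.1%) and 46 of 254 lost (18.1%), and with both 35 of 235 gained (14.9%) and 54 of 254 lost (21.3%). Near all protein-coding genes the gained shares were 22.7%, 16.9% and 15.5%, and the lost shares 24.2%, 27.4% and 30.5%. Promoter regions in all 4 lists were found for 2 of 10 ligand genes, 5 of 6 receptor genes, 12 of 12 kinase and factor genes, 7 of 7 inhibitor genes and 14 of 17 interferon gamma targets and antigen presentation genes, against 65.4% of all genes. Over their 39 distinct promoters, 1 moved up and 8 down with ATRA, where 4.84% and 10.3% of all promoters did. None moved up and 2 down with Corin (2.42% and 1.94% of all), and 1 up and none down with both (4.36% and 2.09% of all).

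IRF9, which binds DNA together with STAT2, stood at percentile 79.3, 90.7, 76.6 and 87.8, higher in both lists with ATRA. IRF7, the factor that amplifies type I interferon, stood at 73.5, 92.8, 52.4 and 62.4. The 8 that moved down with ATRA were those of IFNA2, IFNGR1, IRF1, IRF2, GBP2, TAP1 and B2M and the region shared by PSMB8 and PSMB9. In rank, IRF1, an activator of interferon targets, went from 70.8 to 47.0. IFNGR1, the ligand-binding chain of the interferon gamma receptor, went from 68.9 to 45.2, and B2M, the light chain of class I molecules, from 73.7 to 51.7. Their folds changed little, from 12.1 to 11.2, from 11.7 to 10.9 and from 12.6 to 12.1, while folds as a whole were higher with ATRA. The -log10 p rose for IFNGR1 (1029 to 1048) and fell for IRF1 (687 to 632) and B2M (1023 to 931). The 2 that moved down with Corin were IFNGR2 and IRF7. The one promoter that moved up with ATRA was that of IFNE, an interferon of epithelia, at folds of 4.78, 18.5, 3.75 and 8.44 and percentiles of 18.0, 82.7, 15.2 and 47.6. IFNB1 and IFNW1 had their promoters called in DMSO only, at 4.83 and 3.48. The IFNL1 promoter was called with ATRA plus Corin only, at 2.34, and IFNG had no region near it in any list. Promoter accessibility is not expression, and no RNA was analysed here.

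As a check of the cell type, promoter regions were called for 10 of 12 myeloid marker genes (MPO and CD14 had none), for 2 of 5 T cell, 3 of 4 B cell, 2 of 4 erythroid, 3 of 4 epithelial, 0 of 2 hepatocyte and 2 of 2 fibroblast markers, where 74.8% of all protein-coding genes had one. CD3D, CD3E, CD3G and MS4A1 had none. Promoter calls were thus found for markers of several lineages and do not by themselves set the cell type.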

How the data were processed

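ATAC-seq of U-937 cells gave 4 deposited peak lists, 1 for each group of 2 samples, with 222491 (DMSO), 222110 (ATRA), 189896 (Corin) and 197548 (ATRA plus Corin) peaks. Per the submitters' processing notes, cutadapt, Bowtie2, SAMtools, Picard and MACS2 were used on hg38; versions and settings are not given in the sources used here. By the names the authors gave them, the lists are filtered naive-overlap peaks, with 1 list per group and no per-sample values; the steps behind that name are not spelled out in the sources used here. In the deposited lists, column 7 is the ratio (fold) of peak signal over local background, and the next columns are the authors' −log10 p-values and q-values of each peak.

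Peaks were merged within lists and then over lists on 24 chromosomes (116563, 113914, 101851 and 94917 regions per list before the second merge). They were assigned to GENCODE release 44 genes with a 10 kb flank and a minimum overlap of 1 base. Percentiles, promoter regions and gained and lost regions are defined beside their first use. Named genes were every member, with values in all lists for those moved, not called in all 4 lists, or of a described role; named regions were the 5 gained and 5 lost with the highest −log10 p per treatment. Motifs were searched in RefSeq promoters (29 of 36 genes matched) and in hg38 windows of 200 bases at summits. Python 3.11.15, pandas 2.3.3, numpy 2.4.6 and statsmodels 0.14.6 (Wilson intervals) were used. The merging and counting were tested on simulated peaks. Depth is unknown from the lists. The genes, gene lists and measures were chosen with earlier results of these data known. No test was made, since each group has 1 list.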

Additional observations from a re-analysis of the deposited data

How the results depend on the processing

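Alternatives were a −log10 q of at least 5, flanks of 2 and 50 kb, 50% overlap, peaks within 150 bp merged, lists of equal length, ranks by −log10 p, and promoters within 2.5 kb. Added after seeing the data were a −log10 p of at least 10, ranks among promoter regions, and canonical starts only. Of the alternative values, 85 stayed within the main share's Wilson interval or within 1.5 times the main count, whatever the background did, and 15 moved, as follows; the cause was not tested. The share lost with ATRA was 6.25% with a flank of 2 kb. At a −log10 p of at least 10, the share lost was 17.3% with Corin and 12.5% with ATRA plus Corin, where all protein-coding genes had 16.6% and 18.2%. Ranked by −log10 p, 5 promoters moved up and 1 down with ATRA, and 0 up with Corin. Ranked among promoter regions, 10 moved up and 1 down with ATRA, 5 up with Corin, and 7 up and 3 down with ATRA plus Corin. With canonical starts, 1 moved down with ATRA, 1 with Corin and 0 with ATRA plus Corin. Within 2.5 kb, 2 moved down with ATRA plus Corin.

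No paired analysis was possible because the lists hold 1 combined value per group, and for the same reason no fit without a replicate was run. The files give no depth, and an interval over regions says nothing of variation between cultures.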

Other observations

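Promoters of other genes with an ISRE at the summit were described in the same way, leaving out the 36 genes. There were 194 of them, and their median shift with ATRA was -2.67 points against -7.01 for the 11228 without one. A move up by 20 points or more was found for 13.4% of the promoters with an ISRE and 4.68% of those without. Base composition moved with this too: among promoters of the lowest GC class the values were 20% of 130 and 11.1% of 3637. With Corin the shares moved up were 4.12% and 2.39%, and with ATRA plus Corin 10.8% and 4.23%. These comparisons were chosen after the data were seen and have no replicates, so they describe the lists.

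Over all summit windows near the 36 genes, 22 of 157 held an ISRE (14.0% against 2.93% near all protein-coding genes), and 0 of the 15 regions gained with Corin did (1.65% near all). The 2 Corin-only regions of IFI44 were the only regions near that gene in any list.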
